A study of Mus musculus with 4 samples.

Results

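SMAD genes encode the proteins that carry signals of the TGF-beta family from receptors at the cell surface to chromatin, and RUNX proteins are among the DNA-binding factors that SMADs associate with. RUNX1 binding at the 8 mouse SMAD genes (Smad1, Smad2, Smad3, Smad4, Smad5, Smad6, Smad7 and Smad9) was examined in a ChIP-seq peak list of the fetal ovary. A peak was taken as a SMAD peak when the transcription start site (TSS) nearest to its edge, among curated RefSeq transcripts, belonged to a SMAD gene, or when it overlapped the span of such a gene. This gave 9 of the 10494 peaks in the list, of which 10490 lay on assembled chromosomes and could be placed. The 9 peaks belonged to 6 of the 8 genes.

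The series held 2 RUNX1 ChIP libraries and 2 input libraries, all from pools of XX ovaries taken at E14.5 from CD1 embryos, an outbred strain, and freed of the mesonephros. No mutant allele or treatment was used in any library. The authors merged the RUNX1 replicates before calling peaks, so that each 300 bp peak has 1 fold (a ratio over background as the peak caller gave it, which may be the input or the local signal, since the list does not say) and 1 p-value from the same caller, without an error between replicates. The number of reads behind a peak is not known, and no difference between peaks could be tested. Whole ovaries were used, in which germ cells, pre-granulosa cells and other somatic cells are mixed. The peak list alone thus assigns no peak to a cell type, and binding in fewer cells cannot be told apart from weaker binding per cell. The paper reports that a fluorescent reporter of Runx1 was absent from germ cells at the onset of sex determination. It reports the same reporter in pre-granulosa cells throughout fetal ovary development.

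Receptor-regulated SMADs (R-SMADs) are phosphorylated by activated type I receptors. SMAD1, SMAD5 and SMAD9 respond mainly to BMPs and to anti-Müllerian hormone, whereas SMAD2 and SMAD3 respond to TGF-beta, activin and Nodal. Phosphorylated R-SMADs join the common partner SMAD4 and bind DNA in the nucleus, where CAGACA and, mostly for the BMP branch, the GC-rich GGCGCC are forms of their recognition elements. The inhibitory SMAD6 and SMAD7 are induced by the same signals and dampen them. In the ovary, activin, BMPs and TGF-beta act on granulosa cells and their precursors, and follistatin holds activin back.

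The sequences under the peaks of the BMP R-SMAD genes show how differently RUNX1 peaks near a TSS can be built. Capitals mark the RUNX core (TGTGGT or TGCGGT) and the SMAD elements CAGACA and GGCGCC, on either strand. All come from the RefSeq copy of GRCm38 (mm10) and are printed on its forward strand, and the part of the Smad5 peak that lies in the first exon is left out.
Smad9 peak, chr3:54755129-54755428: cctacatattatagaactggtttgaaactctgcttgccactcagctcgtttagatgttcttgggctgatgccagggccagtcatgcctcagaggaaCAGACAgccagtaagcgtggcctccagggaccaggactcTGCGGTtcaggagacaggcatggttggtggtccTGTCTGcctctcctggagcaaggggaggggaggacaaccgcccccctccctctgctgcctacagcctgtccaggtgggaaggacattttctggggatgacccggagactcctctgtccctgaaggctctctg
Smad1 peak, chr8:79398709-79399008: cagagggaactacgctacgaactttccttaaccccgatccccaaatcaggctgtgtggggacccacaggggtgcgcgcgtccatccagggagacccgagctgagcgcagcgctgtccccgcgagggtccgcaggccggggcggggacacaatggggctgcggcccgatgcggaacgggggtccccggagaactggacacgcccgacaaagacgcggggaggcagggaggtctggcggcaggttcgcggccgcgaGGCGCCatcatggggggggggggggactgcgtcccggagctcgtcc
Smad5 peak, part upstream of the TSS, chr13:56702932-56703009: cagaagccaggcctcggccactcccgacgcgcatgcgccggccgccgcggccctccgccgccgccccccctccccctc
The Smad9 peak held, in this order, CAGACA, the RUNX core TGCGGT and the reverse complement of CAGACA. The core began at base 136 of the peak, 12 bp before the midpoint from centre to centre, and the SMAD elements began at bases 97 and 169. The Smad1 peak held no RUNX core, and its only capitals mark a GGCGCC at base 255. The Smad5 peak held no RUNX core in its 300 bp and a GGCGCC in its exonic part, at base 102.

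By curated transcripts, Smad3 was the R-SMAD gene with the most peaks, 1 near its TSS and 2 far from it. The peak in the gene and the pair of peaks upstream of it are printed with the same marks, since they differ in whether they hold a RUNX core.
Smad3 intron 1 peak, chr9:63757143-63757442: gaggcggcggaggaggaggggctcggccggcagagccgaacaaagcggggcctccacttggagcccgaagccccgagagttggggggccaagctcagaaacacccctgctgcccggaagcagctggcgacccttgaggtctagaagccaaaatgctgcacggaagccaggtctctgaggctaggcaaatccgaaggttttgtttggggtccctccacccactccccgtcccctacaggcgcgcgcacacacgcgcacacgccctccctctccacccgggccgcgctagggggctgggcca
Smad3 peak 22 kb upstream, chr9:63779982-63780281: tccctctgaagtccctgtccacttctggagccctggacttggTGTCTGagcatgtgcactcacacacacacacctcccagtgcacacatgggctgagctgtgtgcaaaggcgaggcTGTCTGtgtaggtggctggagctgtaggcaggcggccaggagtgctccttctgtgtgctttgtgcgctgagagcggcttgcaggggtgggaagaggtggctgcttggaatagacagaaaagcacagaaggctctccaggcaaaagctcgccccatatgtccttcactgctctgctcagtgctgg
Smad3 peak 105 kb upstream, chr9:63862577-63862876: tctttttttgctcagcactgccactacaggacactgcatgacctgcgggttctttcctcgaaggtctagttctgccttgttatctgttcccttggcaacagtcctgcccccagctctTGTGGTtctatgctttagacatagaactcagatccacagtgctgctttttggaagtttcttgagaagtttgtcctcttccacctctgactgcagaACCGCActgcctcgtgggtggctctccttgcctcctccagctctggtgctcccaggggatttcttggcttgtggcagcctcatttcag
The intron 1 peak held neither a RUNX core nor a SMAD element. The peak 22 kb upstream held 2 copies of CAGACA, both on the reverse strand and starting at bases 43 and 117, and no RUNX core. The peak 105 kb upstream held 2 RUNX cores, TGTGGT at base 118 on the forward strand and TGCGGT at base 213 on the reverse strand, and no SMAD element.

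All genes of the BMP branch had 1 RUNX1 peak each, within 1 kb of the TSS. Smad1 (GeneID 17125, reverse strand, 61.0 kb, 7 exons) had its peak in intron 1, with its edge 420 bp downstream of the TSS. The fold was 8.95 (p-value 3.20e-18), higher than that of 75.4% of the 7969 peaks within 1 kb of a TSS. Smad5 (GeneID 17129, forward strand, 39.4 kb) had a peak that covered 2 of its 3 curated TSSs, with 78 bases upstream of the gene and 222 bases in noncoding sequence of exon 1. Its fold was 10.18 (p-value 2.60e-15), higher than that of 81.9% of peaks near a TSS. By p-value it stood lower, as only 45.3% of all peaks had a higher one. Smad9 (GeneID 55994, forward strand, 45.7 kb, 6 exons) had a peak ending 154 bp upstream of the TSS, at a fold of 6.48 (p-value 4.76e-11). By fold this is the middle of the peaks near a TSS, of which 49.4% had a lower fold. Only 20.5% of all peaks had a higher p-value than the Smad9 peak. The order by fold, Smad5 before Smad1 before Smad9, is not that by p-value, in which Smad1 came first.

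In the TGF-beta and activin branch, peaks lay near the TSS and also far from it. Smad3 (GeneID 17127, reverse strand, 111 kb, 9 exons) had a peak in intron 1, 552 bp downstream of its only curated TSS, with a fold of 10.18 (p-value 3.55e-22). This equals the fold of the Smad5 peak, whereas the p-value was lower. The peaks 22.0 kb and 105 kb upstream of Smad3 were weak, with folds of 4.71 (p-value 5.06e-11) and 4.63 (p-value 3.54e-08). Of the 1673 peaks that lay farther than 10 kb from a TSS, 20.4% and 18.1% had a lower fold than these. With 3 peaks, Smad3 belonged to the 228 of 26180 genes (0.871%) nearest to 3 or more. Smad2 (GeneID 17126, forward strand, chr18:76241701-76311747, 11 exons) had a peak at chr18:76241355-76241654, ending 47 bp upstream of its first TSS, at a fold of 6.90 (p-value 4.92e-21). A second Smad2 peak, at chr18:76378970-76379269, had the highest fold at any SMAD gene, 17.90 (p-value 2.84e-26). By fold it ranked 427 among the 10490 peaks, and 94.4% of the distant peaks had a lower fold. A higher p-value was held by 79% of all peaks. This peak lay 67.2 kb past the end of Smad2 and 117 kb from the last of its 3 TSSs, in sequence without a curated gene.

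Assignment of the 3 distant peaks to SMAD genes rests on distance alone and on the annotation. Where predicted RefSeq transcripts also counted, all 3 were nearest to predicted noncoding genes, and the peak 22 kb upstream of Smad3 covered the TSS of Gm35941, one of these. With GENCODE M21 transcripts, an annotation added after the data had been seen, they again went to other genes. The peak 105 kb upstream of Smad3 lay between Smad3 and Smad6, 90.2 kb from the end of the Smad6 span and 159 kb from the Smad6 TSS. Which gene, if any, these sites act on was not tested.

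**Figure D1:**
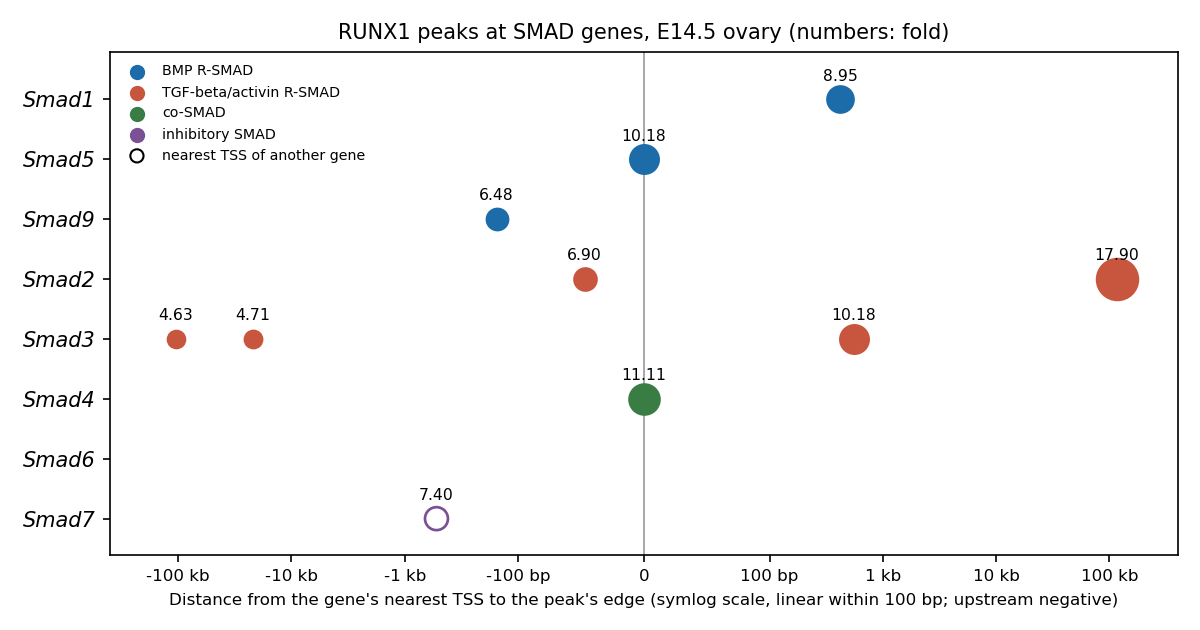
RUNX1 peaks at the 8 SMAD genes of E14.5 ovaries, by the signed distance from the gene's nearest TSS to the peak's edge (symlog axis, linear within 100 bp, upstream negative), with the fold as point area and number and the role of the gene as colour. Points gather within 1 kb of the TSS for all genes but Smad6, and the Smad7 point is open because its nearest TSS belongs to another gene.

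Smad4, the partner of every R-SMAD, had the strongest RUNX1 peak near a TSS in the family. Smad4 (GeneID 17128, reverse strand, chr18:73634790-73703791) had its peak over the TSS at chr18:73703617-73703916, with 125 bases upstream and 175 in noncoding sequence of exon 1. The fold was 11.11, higher than that of 85.3% of peaks near a TSS. The p-value of 5.32e-41 was the lowest at any SMAD gene and ranked 766 in the list. The start of a long noncoding RNA gene on the other strand, 4930578L24Rik, lay 135 bp from the Smad4 TSS and 10 bp from the peak. The peak covered the Smad4 TSS and not that of its neighbour, but a peak at such a shared start cannot be ascribed to either gene.

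The inhibitory SMAD genes were nearest to no RUNX1 peak by the rule, for different reasons. Upstream of Smad7 (GeneID 17131, forward strand, chr18:75367365-75395934) stood a peak at chr18:75366542-75366841 with a fold of 7.40 (p-value 1.27e-21), 524 bp from the Smad7 TSS. It was nearest to the TSS of the divergent noncoding gene Gm20544, 247 bp away, which starts 277 bp from Smad7 and holds the whole peak. Where only protein-coding genes competed for peaks, Smad7 gained this peak and 3 others at 24.2, 44.7 and 98.0 kb with folds of 4.27, 6.29 and 4.73. None of these 4 peaks held a RUNX core. Smad6 (GeneID 17130, reverse strand, chr9:63953076-64022059), which preferentially blocks BMP signals, had no peak in its 69.0 kb span and none within 50 kb of its TSS. Of all 26180 genes, 39.8% had no peak within 50 kb of a TSS. The peak closest to Smad6 lay 56.5 kb upstream with a fold of 4.76, nearest to another gene. Weaker binding that missed the authors' limits on enrichment would not be listed.

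Counted by the rule, 6 of 8 SMAD genes were nearest to at least 1 peak, while 34.6% of the 26180 genes with a curated transcript were. Among the 21000 protein-coding genes alone, 7 of 8 SMAD genes met this, and 40.8% of the whole did. A peak within 1 kb of a TSS, whichever gene was nearest, was found at 7 of 8 SMAD genes, against 33.0% of all genes and 37.4% of protein-coding genes. These shares lay above the background, but the genes were chosen with results known and the counts were not tested. All peaks within 1 kb of a TSS had a median GC content of 68.0%, against 52.7% in 32851 promoter windows of 300 bp. The background was not matched for base composition. With peaks of fold 8 or more alone, 4 SMAD genes (Smad1, Smad3, Smad4 and Smad5) had a peak within 1 kb, where 11.2% of all genes did. With p-values under 1e-20 alone the 4 were Smad2, Smad3, Smad4 and Smad7, where 13.2% of all genes passed.

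In strength, the SMAD peaks stayed far below the highest fold of the list, which was 358.22. The 9 SMAD peaks had folds from 4.63 to 17.90 with a median of 8.95, against a median of 6.41 and quartiles of 5.02 and 8.89 over all 10490. The 6 that lay within 1 kb of a TSS ran from 6.48 to 11.11 with a median of 9.56, against 6.48 over all 7969 peaks of that kind. By p-value the SMAD peaks spread widely. The share of all peaks with a higher p-value ran from 5.04% for the peak 105 kb upstream of Smad3 to 92.7% for that of Smad4. For Smad5 and Smad9 it was 45.3% and 20.5%. Of the 9 SMAD peaks, 6 were thus near a TSS, where 76.0% of all peaks lay. Of these 6, 2 covered a TSS (Smad4 and Smad5), and 45% of all peaks near a TSS did so. The GENCODE M21 annotation places a Smad2 TSS inside the Smad2 peak, which would make 3. The share over all peaks near a TSS was not computed with that annotation.

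**Figure D2:**
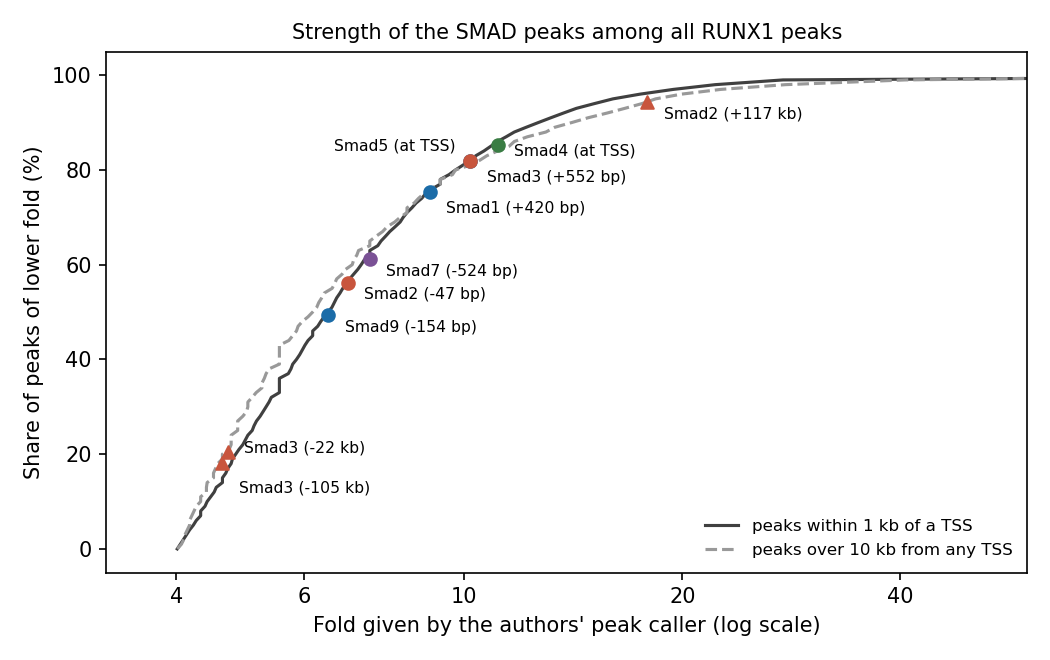
Share of peaks of lower fold, in percent, against the fold on a log axis, for all RUNX1 peaks within 1 kb of a TSS and over 10 kb from any TSS (lines), with the SMAD peaks as circles (near) and triangles (distant), coloured by role. The Smad3 and Smad5 circles coincide at a fold of 10.18, and the SMAD peaks run from 4.63 to 17.90.

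The RUNX core is the short sequence bound by the Runt domain, and its share in SMAD peaks was near the background. A core lay in 4 of the 9 SMAD peaks, against 39.9% of all peaks, in those of Smad4 and Smad9 near the TSS and in the distant peaks of Smad2 (fold 17.90) and Smad3 (fold 4.63). By distance, this was 2 of 6 near a TSS, against 34.2% of all such peaks, and 2 of 3 farther than 10 kb, against 61.1%. The Smad4 peak held both forms, TGCGGT at base 116 and TGTGGT at base 194, each on the reverse strand, and 8.26% of all peaks held 2 cores or more. The distant Smad2 peak held TGTGGT at base 240, with a GGCGCC at base 202. The intron 1 peaks of Smad1 and Smad3, with folds of 8.95 and 10.18, held no core, and the Smad9 peak, the weakest near a TSS, held 1.

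CAGACA or GGCGCC lay under peaks of Smad1, Smad2, Smad3, Smad5 and Smad9, of which Smad2 had 2 peaks and Smad3 had 3. No share over all genes was computed for this, so only the shares by peak have a background. CAGACA lay in 2 of the 9 peaks, those of Smad9 and Smad3 22 kb upstream, against 15.6% of all peaks, with 2 copies in each. By distance, CAGACA lay in 1 of 6 near a TSS, against 13.3%, and in 1 of 3 farther than 10 kb, against 24.4%. CAGACA also lay in the peak upstream of Smad7, which is inside Gm20544. Smad9 alone held a RUNX core together with CAGACA, which 7.04% of all peaks and 4.79% of those near a TSS did. GGCGCC lay in 4 of the 9 peaks, those of Smad1 and Smad5 and both of Smad2, against 28.0% of all peaks. By distance, GGCGCC lay in 3 of 6 near a TSS, against 32.2%, and in 1 of 3 farther than 10 kb, against 11.2%. None of the 9 peaks held the palindrome GTCTAGAC (0.133% of all peaks), the ETS site CCGGAAGT (4.66%), a forkhead site TGTTTAC or TATTTAC (3.24%) or the CTCF consensus (1.35%). The GGGCGG box of SP and KLF factors lay in 5 of the 6 peaks near a TSS, all but that of Smad3, against 65.7% of all such peaks. In 300 bp promoter windows of RefSeq (250 bp before to 50 bp after a start), the core lay in 22.4% of 32851, CAGACA in 21%, GGCGCC in 11.9% and GGGCGG in 35.7%. Windows were found for 5 SMAD genes (Smad1, Smad3, Smad5, Smad6 and Smad9), and none of them held a RUNX core. The core of the Smad9 peak lay just upstream of the Smad9 window. No window was at hand for Smad2, Smad4 or Smad7, and the TGTGGT of the Smad4 peak lay close upstream of the Smad4 TSS. The windows thus do not show that SMAD promoters lack a core.

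**Figure D3:**
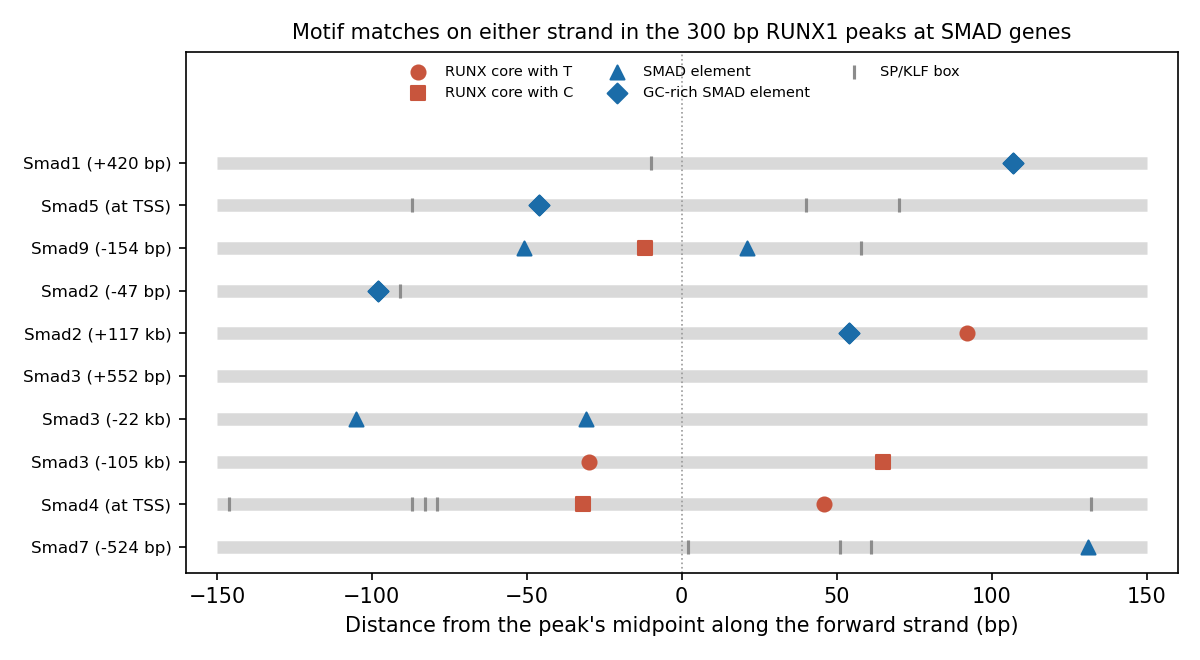
Matches to the RUNX core (with T, circles; with C, squares), the SMAD element CAGACA (triangles), the GC-rich SMAD element GGCGCC (diamonds) and the SP/KLF box (ticks, of which 3 in Smad4 share bases) in the peaks of SMAD genes, by distance in bp from the peak's midpoint along the forward strand. Cores stand in 4 of the 9 SMAD peaks and in none of Smad1, Smad5 or Smad7, whose peak was nearest to another gene.

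The base composition of the peaks split the family. The peaks near the starts of Smad1, Smad2, Smad4 and Smad5 were rich in G and C, at 71.0%, 74.3%, 74.3% and 78.7%, above the median of 68.0% of all peaks near a TSS. Their ratio of observed to expected CpG ran from 0.86 to 1.14. The Smad3 intron 1 peak had 67.7% GC, near that median, and a CpG ratio of 0.64, under the lower quartile of 0.74. The Smad9 peak, with 58.0% GC and a CpG ratio of 0.20, was under the lower quartile of both (63.7% and 0.74). This holds for the peak and not for the Smad9 start. The Smad9 promoter window, which the peak overlaps in part, had 73.7% GC and a CpG ratio of 0.76. Among the distant peaks, both of Smad3 had a CpG ratio of 0.20, below the lower quartile of 0.21 for distant peaks. The distant Smad2 peak combined 53.0% GC, close to their median of 53.7%, with a CpG ratio of 1.16, above their upper quartile of 0.61.

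**Figure D4:**
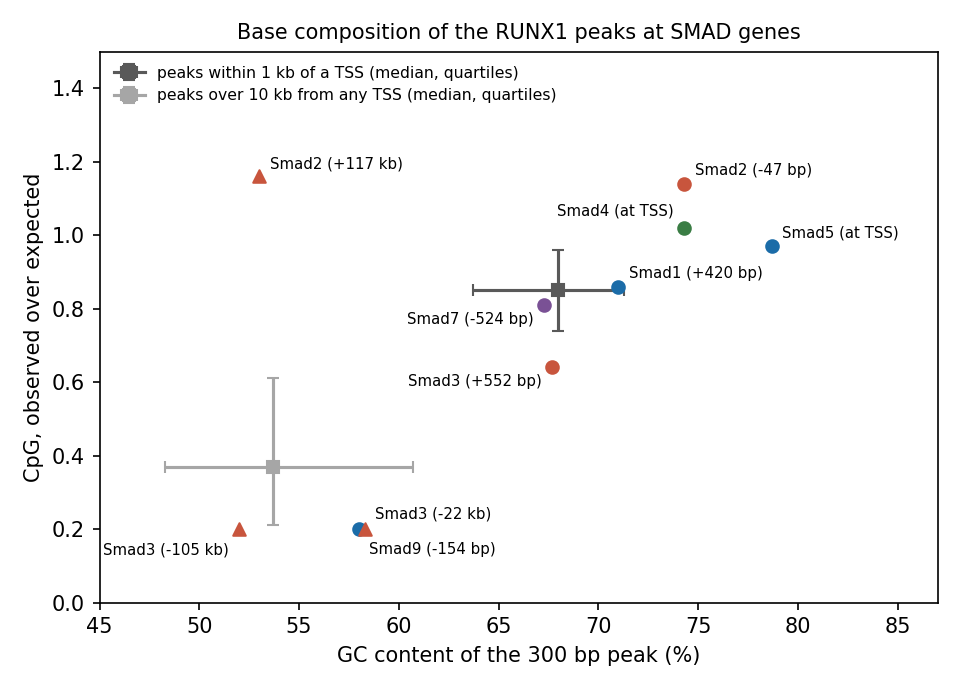
Observed over expected CpG against GC content in percent of each 300 bp SMAD peak (circles, within 1 kb of a TSS; triangles, farther), with median and quartiles of all peaks of either kind as crosses. The Smad9 peak lies with the distant Smad3 peaks at a CpG ratio of 0.20, and the distant Smad2 peak stands at 1.16.

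Other genes of the pathway were listed in groups by role, and their counts stood beside those of the SMAD genes. Of 118 such genes, 90 (76.3%) were nearest to at least 1 peak, where 34.6% of all genes were. With protein-coding genes alone the count was 95, where 40.8% of such genes were nearest to a peak. With a fold of 8 or more it was 44, where 12.3% of all genes were. These backgrounds, too, were not matched for base composition. All 12 genes of ubiquitin ligases that act on SMADs and their adaptors were nearest to a peak, led by Wwp2 (highest fold 20.36), Ndfip1 (15.18) and Wwp1 (11.42). So were 15 of 16 SMAD corepressor genes, led by Ski (44.43), Tgif1 (22.21) and Sin3a (15.87), which encode repressors recruited to SMAD-bound sites. Of the genes of coactivators and DNA-binding partners, 16 of 19 were nearest to a peak, led by the acetyltransferase genes Crebbp (17.45) and Ep300 (12.26) and by Wwtr1 (12.22), which encodes TAZ. Of those of receptor adaptors, phosphatases and nuclear transport, 17 of 18 were, led by the phosphatase genes Ctdsp2 (20.36) and Ctdspl (13.19) and the importin gene Ipo7 (12.43).

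Outside the cell, the counts were lower than these. At the cell surface, the share of receptor genes (78.6%) was close to that of coactivator and partner genes (84.2%). Receptor genes were nearest to a peak in 11 of 14 cases, led by Bmpr1a (16.04), Acvr2b (11.64) and Bmpr1b (9.87). Ligand genes were in 7 of 16, led by Nodal (12.03), Bmp2 (7.59) and Bmp7 (5.25), and extracellular antagonist genes in 5 of 12, led by the follistatin gene Fst (35.17), Bmper (17.28) and Ltbp1 (6.63). Of the genes listed as direct targets of SMADs, 8 of 12 were, led by the cell cycle inhibitor gene Cdkn2b (21.29), Id2 (15.92) and, level at 11.37, Skil, which is also listed as a corepressor, and Atoh8. Cdkn2b, Id2 and the adaptor gene Ndfip1 had no peak within 1 kb of a TSS. Their folds come from peaks farther away, assigned to them by distance alone. By the nearest gene, the share of the SMAD genes (75%) lay under those of the intracellular regulators (84.2% to 100%) and of the receptors (78.6%), and above those of the targets (66.7%), ligands (43.8%) and antagonists (41.7%). The last pair were near the background, which was 34.6% of all genes and 40.8% of protein-coding genes. By a peak within 1 kb of a TSS, which counts Smad7, the order was another, with 100% of adaptor, phosphatase and transport genes, 91.7% of ligase genes, 87.5% of SMAD and of corepressor genes, 78.9% of coactivator and partner genes and 78.6% of receptor genes. The differences between groups were not tested.

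**Figure D5:**
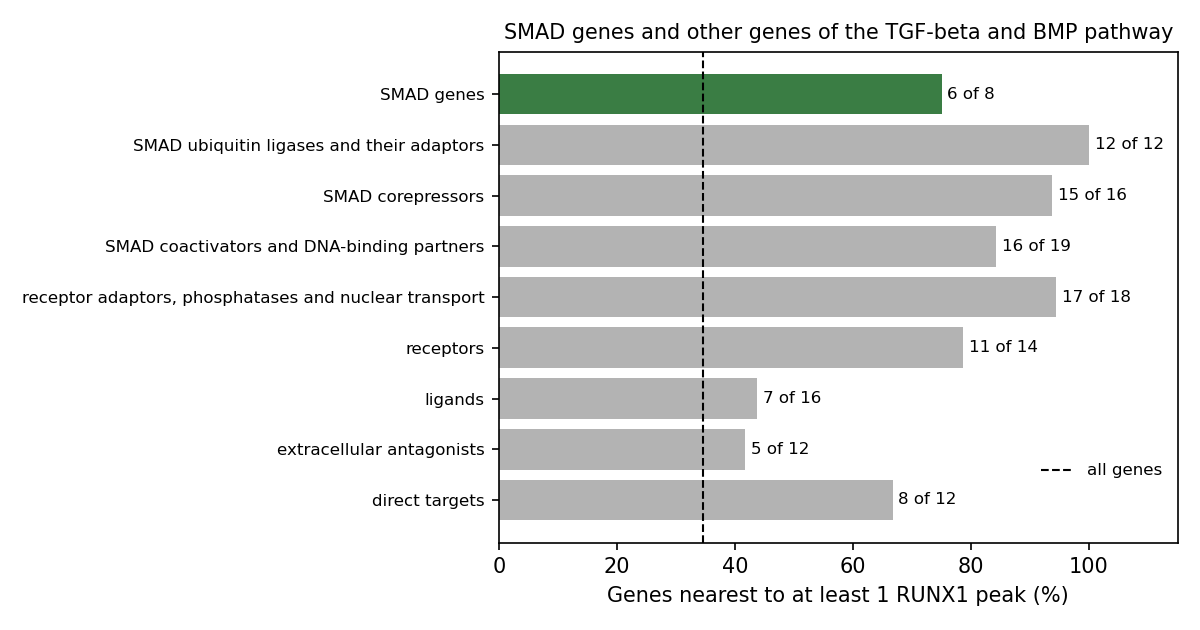
Share in percent of the genes of each group of the TGF-beta and BMP pathway that were nearest to at least 1 RUNX1 peak, with the number of genes beside the bar and the share of all 26180 genes (34.6%) as a dashed line. SMAD genes (6 of 8) stand under the ubiquitin ligase group (12 of 12) and above the ligands (7 of 16) and extracellular antagonists (5 of 12).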

How the data were processed

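RUNX1 ChIP-seq was analysed from the deposited peak list of E14.5 ovaries (2 RUNX1 and 2 input libraries). Per the paper's methods and the labels, the authors mapped single-end reads to mm10 with Bowtie 1.2 at unique positions, removed duplicates with Picard 1.110, merged the replicates, called peaks with HOMER 4.9, reset them to 300 bp and filtered them by enrichment against input and against local signal. The submitters' notes also name bedtools 2.24.0. The deposited fold is a ratio from the peak caller, and the deposited p-value comes from the same caller. Unique mapping leaves out repeats, and depth per peak is unknown.

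Peaks were placed on 45756 curated RefSeq transcripts of GRCm38.p6 with Python 3.11.15 and NumPy 2.4.6, counted from 1, with a tie kept for each gene. The 4 peaks outside assembled chromosomes were left out. Motifs were matched exactly on both strands, and percentiles are shares of peaks of lower fold. Assignment and motif search were tested on simulated data. No test was made, since there is 1 value per peak. Named genes were all SMAD genes, genes whose start or span shares a SMAD gene's peak or promoter, and the 3 pathway genes per group of highest fold, with ties. Members and lists were chosen with earlier results of these data known. Alternatives tried were a higher fold, a lower p-value, other distance rules and annotations, and other forms and windows of the RUNX core.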

Additional observations from a re-analysis of the deposited data

How the results depend on the processing

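Stricter limits changed the counts most. With a fold of at least 8, SMAD peaks fell from 9 to 5 and those with a RUNX core from 4 to 2. Over all 10490 peaks, the median fold of 6.41 lay under this limit and the upper quartile of 8.89 above it. SMAD genes with a peak within 1 kb of a TSS fell from 7 to 4, where 11.2% of all genes had such a peak. Other pathway genes nearest to a peak fell from 90 to 44, where 12.3% of all genes were nearest to a peak. With p-values under 1e-20, the counts were 4 SMAD peaks, 2 of them with a core. The last of these 4 by p-value ranked 3429 among all 10490 peaks. At this limit 3 SMAD genes in place of 6, and 45 other pathway genes, were nearest to a peak, where 13.2% of all genes were. A peak within 1 kb was left at 4 SMAD genes, where 13.2% of all genes had one. The share of all peaks that passed, and the share of those with a core, were not computed at either stricter limit. A peak covering a TSS was found at 2 SMAD genes, and the share of all genes with one was not computed. These limits keep fewer peaks by construction. Of 41 alternatives, 31 left a count within 1.5 times the reported one, or left a fold as it was, and 10 moved it. The alternatives on the highest fold could not change it, since all 9 SMAD peaks were already nearest to their gene. Predicted or GENCODE M21 transcripts each cut the SMAD peaks from 9 to 6, which the limit of 1.5 still counted as the same. The tally is thus no measure of stability. Annotation with GENCODE M21 was an alternative chosen after seeing the data. No paired analysis was possible because the replicates were merged before peaks were called, and for the same reason no replicate could be left out. Depth limits which weak peaks were called.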
